A study of Mus musculus with 3 samples.

Results

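Cell cycle and mitosis genes were measured in mouse epidermis, as a set of 44 genes given by symbol, all 44 of which were found among the 24574 named genes of the arrays. They were grouped by textbook role into 19 S-phase genes, which act at the G1/S transition or copy DNA, 24 mitotic genes, and the G1 cyclin gene Ccnd1. No measured value entered the choice of the genes by symbol, but the set was drawn up with earlier results of these data known.

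The question was how the epidermal transcriptome differs when keratinocytes lose cFLIP (gene Cflar), a caspase-8 inhibitor that guards against death receptor signals, and when TNF, one such signal, is absent as well. In the cFLIP KO, cFLIP fl/fl K14CreERtam mice, the keratin 14 promoter drives a tamoxifen-activated Cre in keratinocytes, so that Cflar is floxed out there and not in other cells of the skin. The cFLIP KO/TNF KO mice were TNF-/- cFLIP fl/fl K14CreERtam, and thus also lacked TNF in every cell. The TNF KO mice were TNF-/-, with no Cre given for them, and no wild-type array was used here. All 3 groups had epilated back skin treated with tamoxifen (25 mg/mL), and epidermis was separated from dermis by heat 72 h after the first application. Each genotype was 1 array of RNA pooled from several animals (4 by the labels, 3 to 6 by the methods, which also differ on the days of tamoxifen, 3 against 3 to 5), and strain and age were not given in the sources used here. One array per genotype left no replicate error. No test was possible, and every difference below describes these arrays and covers no animal-to-animal spread.

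Cells copy their DNA in S phase and divide it in mitosis, and each step needs its own set of proteins, made in waves. E2F factors switch on the S-phase genes, and the DREAM and MMB-FOXM1 complexes act on many mitotic genes through CHR and CCAAT promoter elements. In epidermis the dividing cells are basal keratinocytes and hair follicle progenitors, while suprabasal cells have left the cycle. In bulk epidermis, fewer dividing cells and less RNA per dividing cell cannot be told apart.

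Values are log2 signals, and a difference of 1 is 2-fold. Signals of different genes were not compared, because probes differ in brightness. The sums over marker lists given below weight bright genes most and were compared only between arrays. The targeted gene Cflar read 6.29 in cFLIP KO, 6.53 in cFLIP KO/TNF KO and 7.0 in TNF KO, lowest on the arrays of the genotypes that lose it, by less than 2-fold. Tnf read 5.79, 5.21 and 5.11 on those arrays, so that the TNF-deficient arrays lay within 2-fold of the cFLIP KO array, and whether the probes of either gene lie inside its deleted part was not examined, so neither signal is a firm check of the labels. The cFLIP KO array had a narrower range of values than the others, with an SD over named genes of 1.78, against 2.05 in cFLIP KO/TNF KO and 2.06 in TNF KO. Bright genes were listed lower and dim genes higher in cFLIP KO (across 24574 genes, Spearman's coefficient of the difference from TNF KO with mean signal was -0.43), and the main counts past 2-fold on this array are set beside genes of like signal and given again after a lowess trend on signal was subtracted.

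In cFLIP KO against TNF KO, 38 of the 44 genes were lower, 5 were equal and 1 (E2f1) was higher. Lower signals were listed for 7419 of the 24574 named genes, and for 5524 of the 8501 protein-coding genes with a mean log2 signal of 5 to 9, where 37 of the 44 genes lie. The median difference was -0.50, against -0.30 for those protein-coding genes and 0 for all named genes, and it was -0.20 after the trend was subtracted. Past 2-fold were 10 genes on the lower side (22.7% of the set), Rrm1, Ccna2, Cdk1, Cenpe, Kif11, Kif23, Nusap1, Prc1, Mki67 and Top2a, and 0 on the higher side. Over all named genes 9.2% were at least 2-fold lower and 3.87% at least 2-fold higher. Among the 8501 protein-coding genes of like signal 22.5% were at least 2-fold lower, and 10 of the 37 genes in that range were. Read against genes of like signal, the count for the whole set was thus near the background. After the trend was subtracted 5 genes were at least 2-fold lower (11.4%), against 4.95% of all named genes and 12.1% of the protein-coding genes of that signal range. Of the 37 genes in that range 4 were (10.8%).

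**Figure D1:**
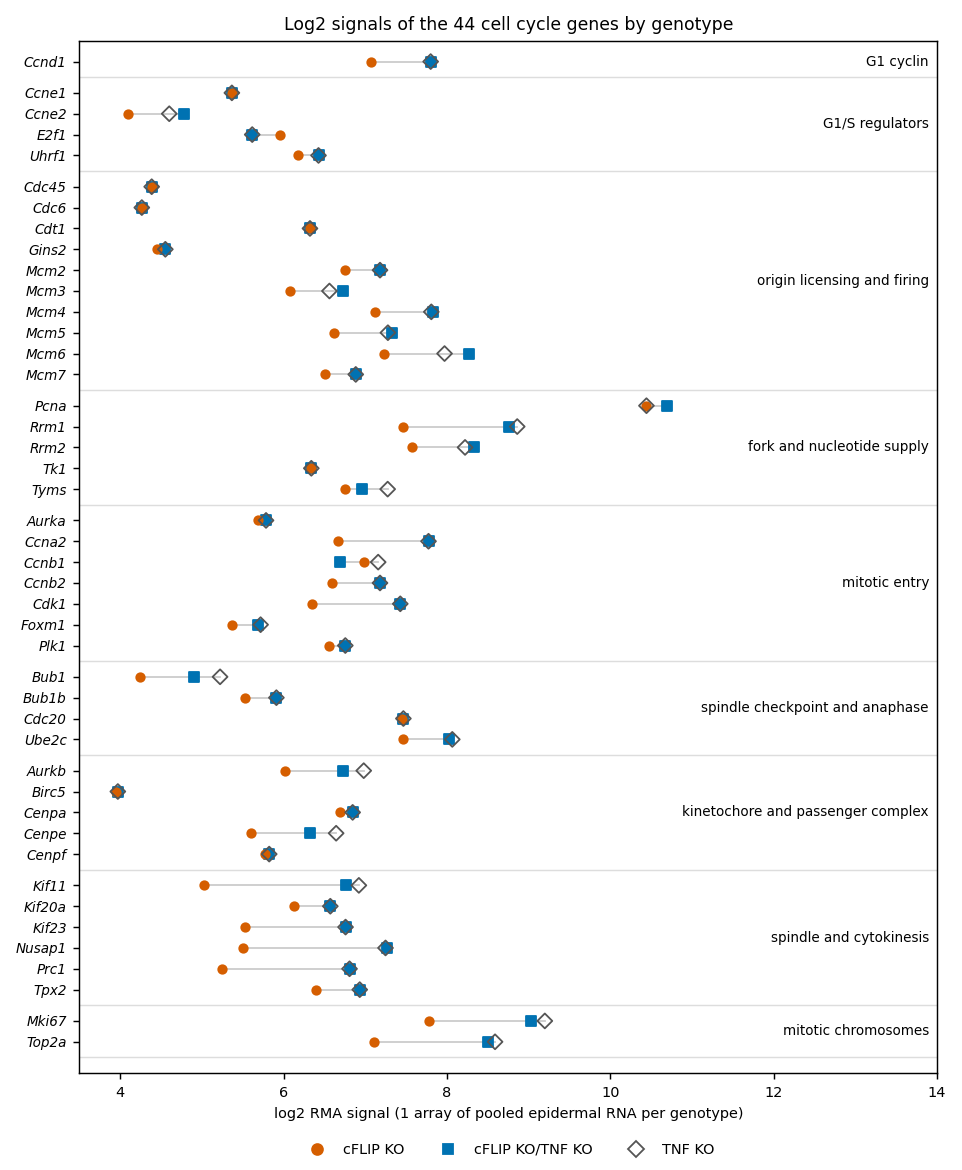
Log2 signal of each of the 44 genes on the cFLIP KO, cFLIP KO/TNF KO and TNF KO arrays (1 array per genotype), with genes ordered by role. The cFLIP KO point lies below both others for 23 of the 24 mitotic genes, among them Kif11 (5.03, against 6.76 in cFLIP KO/TNF KO and 6.92 in TNF KO), while the cFLIP KO/TNF KO and TNF KO points mostly coincide.

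The 3 genes furthest below TNF KO on the cFLIP KO array, Kif11, Nusap1 and Prc1, act on the mitotic spindle and in cytokinesis. Kif11, the kinesin-5 motor that pushes the spindle poles apart, read 5.03 in cFLIP KO, 6.76 in cFLIP KO/TNF KO and 6.92 in TNF KO, a difference of 3.72-fold between cFLIP KO and TNF KO. Nusap1, a microtubule-binding protein of the spindle, read 5.51, 7.26 and 7.25 on the same arrays, a difference of -1.74 from TNF KO. Only the cFLIP KO array was low for either gene. Prc1, which bundles the microtubules of the central spindle, read 5.25, 6.81 and 6.81. Kif23, the centralspindlin motor needed for cytokinesis, read 5.53, 6.76 and 6.76, with a difference of -1.23 between cFLIP KO and TNF KO. These 4 of the 6 spindle and cytokinesis genes were also at least 2-fold lower after the trend was subtracted. The other two, Kif20a (6.13 in cFLIP KO and 6.57 on both other arrays) and Tpx2, which activates Aurora A and promotes spindle assembly (6.40, 6.94 and 6.93), were lower by less than 2-fold.

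Promoters are shown for the S-phase and mitotic genes furthest below TNF KO in cFLIP KO that had a promoter entry, Rrm1, Mcm6, Kif11 and Nusap1, so that the elements named above can be seen in them. Each sequence is the 250 bases before the annotated start in RefSeq (GRCm38.p6), read 5′ to 3′ on the strand of the gene: Rrm1 chr7:102441445-102441694 (plus strand), Mcm6 chr1:128359706-128359955 (minus strand), Kif11 chr19:37376132-37376381 (plus strand) and Nusap1 chr2:119618048-119618297 (plus strand). Capitals mark matches on either strand to TTTGGCGC or TTTCGCGC (E2F), TTTGAA (CHR) and CCAAT (NF-Y).
Rrm1: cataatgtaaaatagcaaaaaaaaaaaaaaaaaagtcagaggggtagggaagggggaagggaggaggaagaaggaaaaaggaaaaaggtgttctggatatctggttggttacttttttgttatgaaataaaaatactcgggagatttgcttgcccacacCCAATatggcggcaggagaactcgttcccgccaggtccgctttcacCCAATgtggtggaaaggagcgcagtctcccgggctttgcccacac
Mcm6: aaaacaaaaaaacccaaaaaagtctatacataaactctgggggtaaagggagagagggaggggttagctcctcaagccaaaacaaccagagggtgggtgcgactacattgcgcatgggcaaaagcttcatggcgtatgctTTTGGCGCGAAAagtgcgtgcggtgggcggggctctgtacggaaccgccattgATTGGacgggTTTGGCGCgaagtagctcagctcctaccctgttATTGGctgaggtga
Kif11: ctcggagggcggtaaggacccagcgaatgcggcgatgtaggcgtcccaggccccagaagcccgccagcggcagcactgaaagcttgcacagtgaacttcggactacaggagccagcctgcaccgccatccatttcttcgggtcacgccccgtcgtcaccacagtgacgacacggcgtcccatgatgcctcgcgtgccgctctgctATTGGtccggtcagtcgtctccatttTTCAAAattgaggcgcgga
Nusap1: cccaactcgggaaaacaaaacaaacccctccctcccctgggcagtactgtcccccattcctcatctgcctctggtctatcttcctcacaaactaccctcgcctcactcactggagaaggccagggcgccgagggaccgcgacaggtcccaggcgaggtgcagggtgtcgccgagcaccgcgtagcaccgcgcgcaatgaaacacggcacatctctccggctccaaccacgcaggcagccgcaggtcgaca
Rrm1 held 2 CCAAT matches, at -91 and -45 from the start. Mcm6 held 3 E2F matches, of which 2 overlap in the run of capitals TTTGGCGCGAAA, and 2 CCAAT matches. Kif11 held 1 CCAAT match at -45 and 1 CHR match, written TTCAAA on the gene's strand, at -19. Nusap1 held no match to these letters in this window. Of the 44 genes, 35 had a promoter entry. CCAAT was found in 17 of the 19 mitotic promoters (89.5%) and in 10 of the 16 S-phase promoters (62.5%), against 34.5% of the 27025 promoters in the table. CHR letters were in 36.8% of the mitotic and 12.5% of the S-phase promoters, against 16.3% of all, and E2F letters in 5.26% and 12.5%, against 0.673% of all. A match describes letters only.

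The genes acting on mitotic chromosomes came next. Top2a, the topoisomerase that untangles sister chromatids, read 7.10 in cFLIP KO, 8.50 in cFLIP KO/TNF KO and 8.59 in TNF KO, and Mki67, which coats mitotic chromosomes and marks dividing cells, read 7.78, 9.03 and 9.20. Their differences from TNF KO were -1.49 for Top2a and -1.42 for Mki67, and -0.88 and -0.73 after the trend, which lies lower at their brightness, was subtracted. Among the mitotic entry genes, Ccna2 (cyclin A2) read 6.66, 7.77 and 7.77, and its partner kinase Cdk1 read 6.35, 7.43 and 7.43. Both were just past 2-fold, at -1.11 and -1.08. Ccnb2 (cyclin B2) was at -0.59, Foxm1, the transcription factor of the mitotic wave, at -0.35, and Plk1 and Aurka, which encode mitotic kinases, at -0.20 and -0.09. Ccnb1 (cyclin B1) had another order of arrays, at 6.98 in cFLIP KO, 6.69 in cFLIP KO/TNF KO and 7.16 in TNF KO, with its lowest signal on the cFLIP KO/TNF KO array.

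Genes of the kinetochore, the passenger complex and the anaphase machinery differed widely among themselves. Cenpe, a kinetochore motor, read 5.60 in cFLIP KO, 6.32 in cFLIP KO/TNF KO and 6.64 in TNF KO and was just past 2-fold, at -1.04. The checkpoint kinase gene Bub1 (4.25, 4.90 and 5.22) and Aurkb, the kinase of the passenger complex (6.01, 6.73 and 6.98), were just short of 2-fold, at -0.98 and -0.97. These 3 genes had their highest signal in TNF KO, with cFLIP KO/TNF KO between. By contrast Cdc20, which activates the anaphase-promoting complex (7.45, 7.47 and 7.47), Birc5, survivin (3.95, 3.97 and 3.97), and Cenpf, a kinetochore protein (5.77, 5.82 and 5.82), had nearly the same signal on all arrays. Cenpa, the centromeric histone, was at -0.15 in cFLIP KO against TNF KO, the checkpoint gene Bub1b at -0.38 and Ube2c, which encodes a ubiquitin-conjugating enzyme of the anaphase-promoting complex, at -0.61. After the trend was subtracted Cenpe was at -0.86, Bub1 at -1.12 and Aurkb at -0.68 in this comparison. Cdc20 was then at 0.52, Birc5 at -0.25 and Cenpf at 0.04.

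Of the 19 S-phase genes, 13 were lower on the cFLIP KO array, 5 were equal and 1 was higher relative to TNF KO, with a median of -0.37. The only one past 2-fold was Rrm1, the large subunit of ribonucleotide reductase, which makes the DNA precursors. It read 7.47 in cFLIP KO, 8.76 in cFLIP KO/TNF KO and 8.86 in TNF KO. Its small subunit Rrm2 read 7.58, 8.33 and 8.22 and Tyms (thymidylate synthase) read 6.75, 6.96 and 7.27, both lower in cFLIP KO by less than 2-fold. The 6 Mcm subunits of the replicative helicase were all lower on the cFLIP KO array, with differences from TNF KO of -0.42 for Mcm2, -0.49 for Mcm3, -0.69 for Mcm4, -0.66 for Mcm5, -0.75 for Mcm6 and -0.37 for Mcm7. Mcm6 read 7.22, 8.26 and 7.97. None of the 6 was past 2-fold. Pcna, the sliding clamp of the replication fork, read 10.44 in cFLIP KO, 10.69 in cFLIP KO/TNF KO and 10.44 in TNF KO. E2f1, whose product switches on S-phase genes, read 5.96 in cFLIP KO and 5.62 on both other arrays. As deposited it was the only gene of the 44 above its TNF KO signal on the cFLIP KO array. Ccne2 (cyclin E2) was at -0.50, Uhrf1, which maintains DNA methylation through replication, at -0.26 and Gins2, a helicase cofactor, at -0.11. Ccne1, the licensing genes Cdc6 and Cdt1, the firing gene Cdc45 and the thymidine kinase gene Tk1 were listed at the same value on all 3 arrays, as were 4911 of the 24574 named genes. The G1 gene Ccnd1 (cyclin D1) read 7.08 in cFLIP KO and 7.80 on both other arrays. After the trend was subtracted Pcna was at 0.76 and E2f1 at 0.43 in cFLIP KO against TNF KO, and other genes of the 44 also lay above 0.

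**Figure D2:**
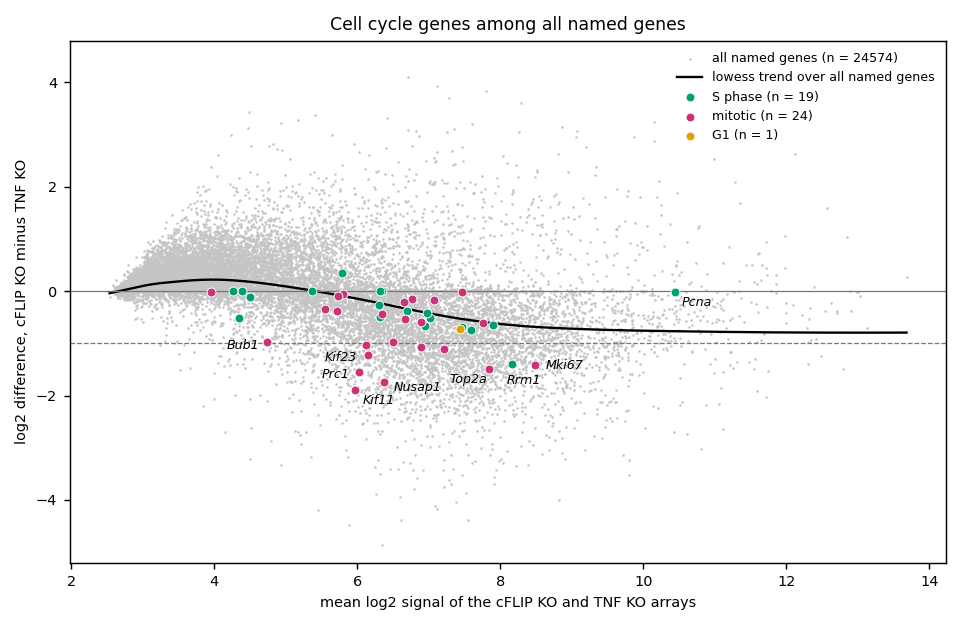
Difference in log2 signal, cFLIP KO minus TNF KO, against the mean log2 signal of the 2 arrays, for 24574 named genes (grey) and the 44 cell cycle genes (coloured by class), with the lowess trend over all named genes (black) and the 2-fold line (dashed). Kif11, Nusap1 and Prc1 lie far under the trend at a mean signal near 6, while Mki67, Top2a and Rrm1 lie where the trend itself is lower.

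S-phase and mitotic genes were then set side by side. All 24 mitotic genes were below 0 in cFLIP KO against TNF KO, with a median of -0.60 and 9 of 24 at least 2-fold lower (37.5%), while 1 of 19 S-phase genes was (5.26%). Within a mean signal of 5 to 9 these were 9 of 22 (40.9%) and 1 of 14 (7.14%), where 22.5% of protein-coding genes were. The S-phase median lay 0.23 above the mitotic median. The gap was 0.10 without the 5 S-phase genes listed at equal values on all arrays, and 0.22 after the trend was subtracted. At least 2-fold lower were then 5 of 24 mitotic (20.8%) and 0 of 19 S-phase genes. Within a mean signal of 5 to 9 these were 4 of 22 (18.2%) and 0 of 14, beside 12.1% of protein-coding genes, so the mitotic share lay closer to that background. Genes are not replicates, so these shares were not tested.

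**Figure D3:**
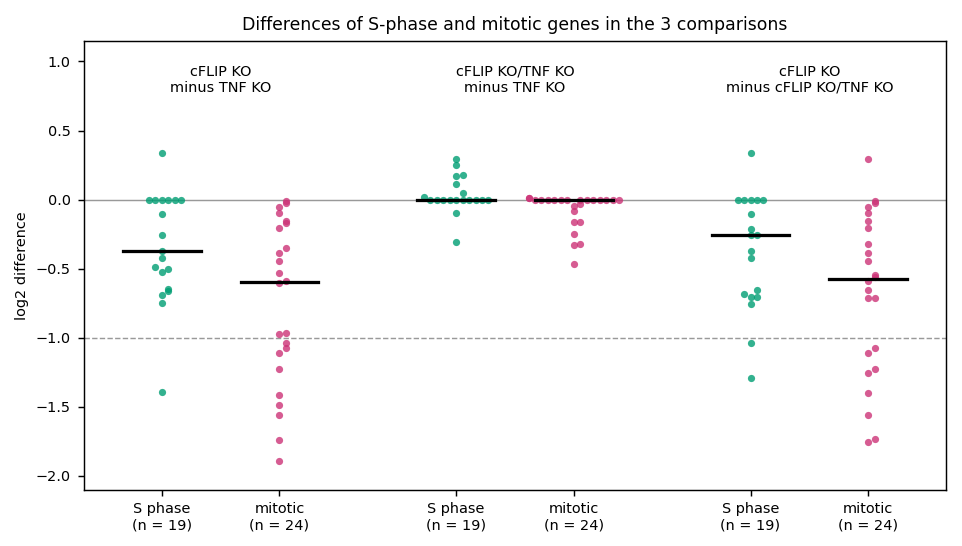
Log2 difference of each S-phase (n = 19) and mitotic (n = 24) gene in the 3 comparisons, 1 point per gene, with a bar at the median. The mitotic median was -0.60 in cFLIP KO against TNF KO, with an S-phase median of -0.37, and both medians were 0 in cFLIP KO/TNF KO against TNF KO.

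When TNF was missing as well, the signals lay close to those of TNF KO, as did those of most named genes, so the closeness was not particular to this set. In cFLIP KO/TNF KO against TNF KO, 0 of the 44 genes were at least 2-fold higher or lower, beside 0.635% higher and 0.22% lower over all named genes. Exactly equal values on the 2 arrays were listed for 24 of the 44 genes (54.5%), and for 12881 of the 24574 named genes (52.4%). Above TNF KO were 7 of 19 S-phase genes and below it 2, among them Mcm6 by 0.29, Pcna by 0.25 and Ccne2 by 0.18, with Tyms at -0.31. Of the 24 mitotic genes 2 were above TNF KO, by 0.01 each, and 9 were below, among them Ccnb1 at -0.46, Cenpe at -0.33, Bub1 at -0.32 and Aurkb at -0.25. Of the 8501 protein-coding genes of like signal 1829 were above TNF KO and 2813 below, so the share of mitotic genes below was near that background. No replicate shows how far 2 arrays of 1 genotype differ, and all of these differences were under 1.5-fold. Scaling to Actb, which read higher in cFLIP KO/TNF KO, moved all genes by -0.52 and so put all 44 below TNF KO, with 0 past 2-fold.

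In cFLIP KO against cFLIP KO/TNF KO, which shares the cFLIP KO array with the first comparison, 37 of the 44 genes were lower, 5 equal and 2 (E2f1 by 0.34 and Ccnb1 by 0.29) higher. The median was -0.49. At least 2-fold lower were 10 genes (22.7%) and at least 2-fold higher 0, beside 8.14% lower and 3.3% higher over all named genes and 20% lower among the protein-coding genes of like signal. After the trend was subtracted 4 genes were (9.09%), beside 4.03% and 9.95%. As deposited the 10 were Rrm1, Mcm6, Ccna2, Cdk1, Kif11, Kif23, Nusap1, Prc1, Mki67 and Top2a, so that Mcm6 (-1.04) stood here in the place of Cenpe (-0.71). Nusap1 differed by -1.76, Kif11 by -1.73 and Prc1 by -1.56. Past 2-fold were 8 of 24 mitotic genes (33.3%) and 2 of 19 S-phase genes. The S-phase median lay 0.32 above the mitotic median, and 0.04 above it without the 5 genes equal on all arrays. Scaling every array to Actb, which read 11.83 in cFLIP KO, 12.39 in cFLIP KO/TNF KO and 11.87 in TNF KO, moved the median of the 44 genes to 0.07 and left Kif11 and Nusap1 past 2-fold.

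**Figure D4:**
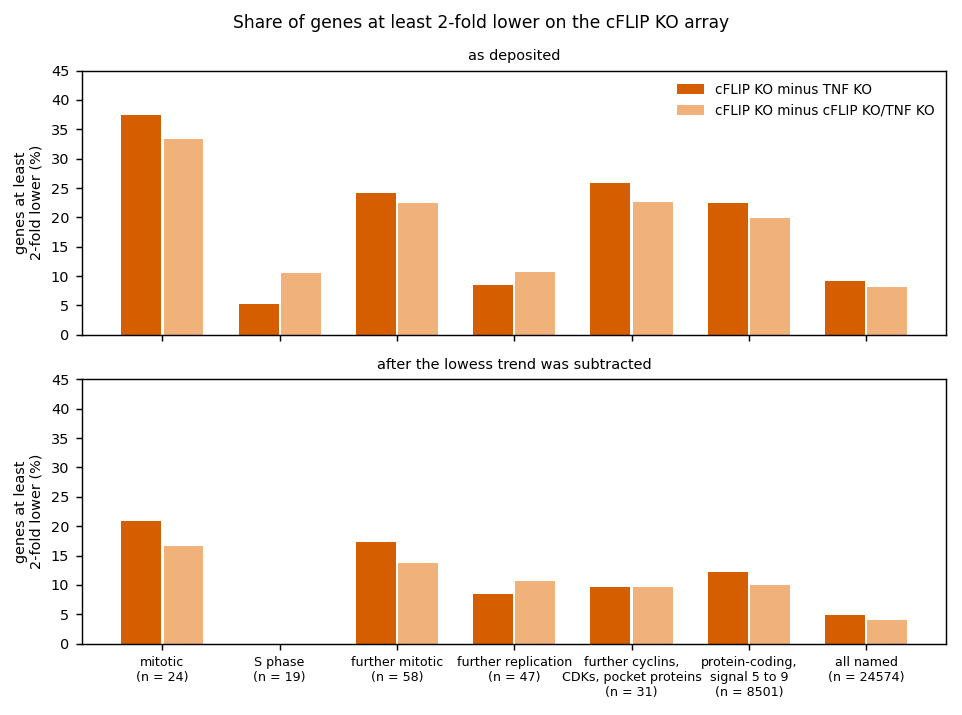
Share of genes at least 2-fold lower on the cFLIP KO array, against the TNF KO and the cFLIP KO/TNF KO array, as deposited (upper panel) and after the trend was subtracted (lower panel), for the mitotic and S-phase genes, further genes of the same processes from other lists, protein-coding genes of like signal and all named genes. As deposited, 37.5% of mitotic and 5.26% of S-phase genes were at least 2-fold below TNF KO. Within a mean signal of 5 to 9 these shares were 40.9% and 7.14%, beside 22.5% of protein-coding genes in that window. After the trend was subtracted the shares were 20.8% and 0%. Within the window they were then 18.2% and 0%, beside 12.1%. The bars of the gene lists are not cut to that window.

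Other genes of the same processes were taken from lists of textbook members. Of 58 other mitotic genes measured (of 59 listed), 14 were at least 2-fold lower and 1 higher on the cFLIP KO array relative to TNF KO, with a median of -0.35. The share was 24.1%, beside 22.5% of protein-coding genes with a mean signal of 5 to 9 and 9.2% of all named genes. After the trend was subtracted 10 were at least 2-fold lower (17.2%, beside 12.1% and 4.95%). This list and those that follow were not cut to that signal window and hold dimmer genes, so these shares are not like for like. Among the lowest were Ndc80, of the outer kinetochore, at -1.99, Anln (anillin, of the cleavage furrow) at -1.86, Cdc25b, a phosphatase that activates Cdk1, at -1.78 and Knl1, a kinetochore scaffold, at -1.69. Ndc80 read 4.76 in cFLIP KO, 6.74 in cFLIP KO/TNF KO and 6.74 in TNF KO. Cks2, a small Cdk-binding protein, ran the other way, at 6.64 in cFLIP KO and 4.48 on both other arrays. Of 47 other replication genes 4 were at least 2-fold lower (8.51%) and 1 higher, with a median of -0.15. This share was near the 9.2% of all named genes and under the 22.5% of protein-coding genes in the signal window. The count was 4 after the trend too, beside 4.95% and 12.1%. Atad2, a chromatin-binding ATPase, was at -1.27, Prim2, a primase subunit, at -1.26, Rfc4, of the clamp loader, at -1.25 and Rpa3, a subunit of the single-strand binding complex, at 1.33, with signals of 7.07 in cFLIP KO, 5.80 in cFLIP KO/TNF KO and 5.74 in TNF KO. Past 2-fold in either list were 0 genes in cFLIP KO/TNF KO against TNF KO.

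The list of other cyclins, CDKs and pocket proteins held 8 of 31 genes at least 2-fold lower and 0 higher in the same comparison, with a median of -0.17. This share was 25.8%, beside 9.2% of all named genes and 22.5% of protein-coding genes in the signal window, to which the list was not cut. After the trend 3 genes were at least 2-fold lower (9.68%, beside 12.1%) and 1 higher. The lowest was Wee1, the kinase that holds Cdk1 inactive, at 4.07 in cFLIP KO, 6.33 in cFLIP KO/TNF KO and 6.36 in TNF KO. The pocket protein genes Rb1 and Rbl2, whose products restrain E2F, were next, at -2.07 and -1.73, and Ccnd2 and Ccng1, which are cyclin genes, were both at -1.30. Among 8 CDK inhibitors, 1 was at least 2-fold lower (12.5%, and 1 after the trend), Cdkn2c at -1.12. The shares over all named genes and over genes of like signal were 9.2% and 22.5%, and 4.95% and 12.1% after the trend. Cdkn1a (p21) read 10.19, 10.36 and 10.77. When the arrays were scaled by 8 reference genes, the median difference from TNF KO turned positive for the replication list (0.10), the cyclin list (0.09) and the CDK inhibitors (0.10), and stayed negative for the other mitotic genes (-0.09).

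Markers of the cells in the sheet differed between the same arrays. The 8 basal keratinocyte markers summed to a log2 signal of 14.02 in cFLIP KO, 14.33 in cFLIP KO/TNF KO and 14.29 in TNF KO. Krt5 and Krt14 carried most of this sum, which shows basal epidermis on every array but little of the other markers. On the cFLIP KO array all 8 lay below their TNF KO signals, with a median difference of -0.46 (0.29 after the trend was subtracted). Krt15 (7.08, 8.92 and 8.91) was the only marker at least 2-fold lower, and 1 marker was after the trend. The 8 suprabasal markers summed to 14.30, 15.40 and 15.63, with 6 of the 8 past 2-fold on the lower side against TNF KO, beside 9.2% of all named genes. After the trend was subtracted 4 were, beside 4.95%, and their median difference went from -1.67 to -0.88. The neutrophil list had 6 of 8 genes past 2-fold above TNF KO (7 after the trend), and sums of 12.49, 11.43 and 10.85, with Ly6g at 2.79 on every array. Of 7 monocyte and macrophage markers 4 were (5 after the trend), with sums of 12.14, 10.99 and 10.21. Over all named genes 3.87% were past 2-fold higher as deposited. Cd14 (11.58, 8.49 and 8.71) carried most of the macrophage sum in cFLIP KO. Against cFLIP KO/TNF KO, 3 of those 7 markers were higher in cFLIP KO and 4 lower, with a median of -0.12. The 11 hair matrix and follicle markers measured, of 12 listed, summed to 8.80, 8.14 and 10.52. The TNF KO sum was carried mostly by Krt71 (5.95, 4.97 and 9.25), Tchh (6.69, 5.03 and 8.73) and Krt27 (6.06, 5.11 and 7.73). Against TNF KO, 3 of the 11 were higher in cFLIP KO, 6 lower and 2, Lef1 and Hoxc13, equal. The 6 Langerhans cell markers summed to 11.58, 12.55 and 11.86, the 7 T cell markers measured to 8.42, 8.89 and 8.91, the 7 fibroblast markers to 12.92, 13.02 and 12.73 and the 5 melanocyte markers to 6.83, 6.65 and 6.91. The part of these cell types in the differences of the cell cycle genes was not tested.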

How the data were processed

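RNA from epidermis was measured on Affymetrix Mouse Gene 2.0 ST arrays, 1 per genotype. By the methods, the deposited log2 values were background-corrected and quantile-normalized with RMA, over probe sets redefined by ENTREZ gene (custom definition 22). The gene values as deposited did not share 1 distribution. Their SDs were 1.78 in cFLIP KO, 2.05 in cFLIP KO/TNF KO and 2.06 in TNF KO, with medians of 4.43, 4.16 and 4.14. The reason was not tested. The RMA version and the log base are not given in the sources used here, and the base was taken from the range of values (2.48 to 13.82). Of 24973 ENTREZ genes, 24574 were named, 559 of them only through the RefSeq table by ENTREZ identifier (which named 1 of the 44 genes, Ccnb1), and 399 unnamed ones were left out. The 44 genes, the lists and the alternatives were chosen with earlier results of these data known. Differences of log2 values were taken between arrays and counted at 2-fold. Genotypes were assigned from the genotype labels. For cFLIP KO/TNF KO the title reads differently from the remaining labels, which were followed. The analysis of variance of the methods could not be repeated with 1 array per genotype, and no p-value was computed. The precision is limited by the number of arrays, which carry no read depth.

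All 44 genes were named. In each other list the 4 genes furthest from 0 in a comparison whose signal reached 4.25, the median of all named values, on 1 array or more could be named, so that a gene may be named through any of the 3 comparisons. Not all of them are printed, and 1 is not reported here. Tnf, Cflar and Actb and the markers were added. The lowess trend used a share of 0.3 of genes and 3 iterations. The alternatives were other thresholds, scalings and filters, a repeated quantile normalization, and, added after the data were seen, a signal window, leaving out genes equal on all arrays and single genes under each scaling. The steps were tested on simulated data with known changes. Python 3.11.15, pandas 2.3.3, numpy 2.4.6, scipy 1.17.1, statsmodels 0.14.6 and matplotlib 3.10.9 were used.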

Additional observations from a re-analysis of the deposited data

How the results depend on the processing

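No paired analysis was possible because each genotype was 1 array, and for the same reason no array could be left out. In cFLIP KO against TNF KO the number of the 44 genes past the threshold on the lower side was 10 at 2-fold, 19 at 1.5-fold and 2 at 3-fold. Over all named genes 9.2%, 15.6% and 3.45% were lower at these thresholds. The number of the 44 genes was 6 when scaled by reference genes, 5 after the lowess trend was subtracted and 5 after the quantile normalization was repeated. The shares over all named genes were then 6.14%, 4.95% and 4.84%. Medians of the 44 genes were -0.24, -0.20 and -0.094 in place of -0.50. In cFLIP KO against cFLIP KO/TNF KO the number was 10 at 2-fold, 20 at 1.5-fold and 2 at 3-fold. Over all named genes 8.14%, 15.4% and 2.54% were lower at these thresholds. The number was 2 when scaled by Actb, 4 when scaled by reference genes, 4 after the trend was subtracted and 4 after repeated quantile normalization. The shares over all named genes were then 2.68%, 4.53%, 4.03% and 4.10%. Medians of the 44 genes were 0.067, -0.19, -0.20 and -0.15 under those 4 settings, in place of -0.49. The median in cFLIP KO/TNF KO against TNF KO was 0, and -0.52 when scaled by Actb. The S-phase median minus the mitotic median in cFLIP KO against cFLIP KO/TNF KO was 0.32, and 0.036 when genes equal on all 3 arrays were left out. Kif11 and Nusap1 were at least 2-fold lower in 6 of 6 settings at the 2-fold threshold in both comparisons with cFLIP KO, and Prc1 in 6 and 5. These settings include the deposited values and the floor at the 25th percentile, which gave the same genes past 2-fold. The 3 genes were also the furthest below TNF KO in the same values, and the tally was not made over all named genes. Of the values of single genes under the other scalings and with the floor at the 25th percentile, 376 stayed within 0.25 of the deposited difference and 284 did not. Scaling by Actb moved the median of all genes by 0.04 in cFLIP KO against TNF KO, by -0.52 for cFLIP KO/TNF KO over TNF KO, and by 0.56 in cFLIP KO against cFLIP KO/TNF KO, and scaling by reference genes by 0.26, -0.05 and 0.31. In cFLIP KO against TNF KO, 951 genes were higher and 2261 lower over all named genes, 1804 and 1508 when scaled by reference genes, 960 and 1216 after the trend, and 1046 and 1189 after repeated quantile normalization. The cause of these shifts was not tested.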

Other observations

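Of the 10 genes past 2-fold on the lower side in cFLIP KO against TNF KO, 9 had a promoter entry, of which 4 held CHR letters (44.4%) and 8 held CCAAT (88.9%), against 5 of the other 26 genes of the set for CHR (19.2%) and 19 of 26 for CCAAT (73.1%). Of the 10 genes, 9 were mitotic. CHR letters were in 36.8% of the mitotic and 12.5% of the S-phase promoters of the set, and CCAAT in 89.5% and 62.5%. Over all promoters the shares were 16.3% and 34.5%. Class and lower signal thus cannot be told apart in these counts, which were not tested.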
